A study of Mus musculus with 6 samples.

Results

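Collagens are the rod-like proteins of the extracellular matrix, and the genes described here are those that encode their chains. Members were all genes whose symbol on the array has the form Col, a type number, the letter a and a chain number, and 43 of the 30120 genes on the array had such a symbol. They are read by 68 of the array's 39429 probes, with 1 probe for 25 genes and more than 1 for the other 18. By structure, 11 are fibrillar collagens, 8 belong to basement membranes (the type IV chains with Col15a1 and Col18a1), and 24 are other collagens.

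RNA came from the side population of the anterior pituitary of female mice, which pumps out the dye Hoechst, sorted by flow cytometry without the cells highest in Sca1. GHCre/iDTR mice carry an inducible diphtheria toxin receptor (iDTR) together with a Cre transgene named for growth hormone (GHCre), and -/iDTR controls carry the receptor without the Cre. Both genotypes received diphtheria toxin (DT) at 4 ng per g body weight, given 2 times a day for 3 or 10 days, so the controls were toxin-treated too. The groups were GHCre after 3 days (2 arrays), control after 3 days (2 arrays), GHCre after 10 days (1 array) and control after 10 days (1 array), on 1-colour Agilent arrays. The number of animals behind each array is not given in the sources used here, so p-values measure only the spread between these arrays, and the 10-day arrays have no replicate. The growth hormone gene Gh itself, the gene of the targeted cells, read 5.46 and 2.20 in GHCre and 5.69 and 3.65 in control arrays after 3 days, and 2.21 in GHCre against 7.86 in control after 10 days. Among pituitary stem cell markers, Sox9, S100b and Prrx1 were well above background on all 6 arrays, while Sox2 and Hesx1 were well above background on none.

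Every collagen is a trimer of chains wound into a helix over stretches in which glycine recurs regularly. Fibrillar collagens (types I, II, III, V, XI, XXIV and XXVII) are secreted as procollagens, trimmed by proteinases and packed into crosslinked fibres, with type I the main fibre of most connective tissue. Type IV chains join into a sheet that, with laminins, nidogens and perlecan, forms the basement membrane under epithelia and around vessels. The remaining collagens form beaded filaments (type VI), hexagonal networks (type VIII), molecules that coat fibrils (the FACIT group, among them types IX, XII, XIV, XVI and XX) or span the cell membrane (types XIII, XVII, XXIII and XXV). In the anterior pituitary, collagen is known mainly from the basement membranes around its cell cords and capillaries and from the interstitial matrix made by fibroblasts and mural cells.

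The type IV genes lie in head-to-head pairs, which is why 3 of their promoter windows are shown, cut around the transcription start by RefSeq's annotation of GRCm38.p6. Col4a1 and Col4a2 start 21 bases apart on opposite strands, and their windows overlap by 78 bases. Col4a4 is shown with them because its probe of highest signal differed from theirs in direction. Capitals mark the CCAAT box, the GC box with its core GGGCGG, and the TATA box read here as TATAA, each searched on both strands as exactly these letters.
Col4a1 promoter, chr8:11312777-11313076, minus strand: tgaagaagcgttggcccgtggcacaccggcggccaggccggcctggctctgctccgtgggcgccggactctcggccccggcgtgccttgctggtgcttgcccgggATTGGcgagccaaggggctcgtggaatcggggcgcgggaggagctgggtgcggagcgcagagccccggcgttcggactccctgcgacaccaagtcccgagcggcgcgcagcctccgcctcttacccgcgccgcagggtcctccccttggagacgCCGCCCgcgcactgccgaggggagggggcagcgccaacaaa
Col4a2 promoter, chr8:11312555-11312854, plus strand: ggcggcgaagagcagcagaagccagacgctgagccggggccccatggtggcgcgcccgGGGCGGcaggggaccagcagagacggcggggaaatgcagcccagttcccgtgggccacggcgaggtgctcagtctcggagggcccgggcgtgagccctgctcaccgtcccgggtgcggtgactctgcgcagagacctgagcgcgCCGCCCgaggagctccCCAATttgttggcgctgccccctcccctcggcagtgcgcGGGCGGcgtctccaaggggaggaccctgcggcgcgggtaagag
Col4a4 promoter, chr1:82586800-82587099, minus strand: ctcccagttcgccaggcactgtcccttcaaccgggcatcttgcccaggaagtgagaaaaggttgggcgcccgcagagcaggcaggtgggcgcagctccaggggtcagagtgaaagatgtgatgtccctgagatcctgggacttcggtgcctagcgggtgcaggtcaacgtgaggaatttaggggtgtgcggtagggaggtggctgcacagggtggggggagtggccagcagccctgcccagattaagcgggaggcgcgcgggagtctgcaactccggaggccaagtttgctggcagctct
The Col4a1 window holds 1 CCAAT and 1 GGGCGG, the Col4a2 window holds 1 CCAAT and 3 GGGCGG, and the Col4a4 window holds none of these letters. Of the 43 collagen genes, 35 matched the promoter table, with 38 windows between them. GGGCGG occurred in 60.5% of the collagen windows, against 35.7% of all 32851 windows in the table. CCAAT occurred in 34.2% of collagen and 37.4% of all windows, and TATAA in 18.4% of collagen and 24.9% of all windows. Col4a5 and Col4a6 start 1343 bases apart.

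Most collagen genes gave a signal in the sorted cells. A probe counts as well above background by the flag that the scanner software sets for each spot. By that flag 31 and 32 of the 43 genes were detected in GHCre and 28 and 34 in control arrays after 3 days, and 33 in GHCre and 34 in control after 10 days. Of the 68 probes, 34 were well above background on all 6 arrays and 11 on none. Col6a5, a type VI chain, and Col17a1, the transmembrane collagen of epithelial hemidesmosomes, were detected on no array. A further 7 genes, Col2a1, Col5a2, Col6a6, Col10a1, Col11a1, Col24a1 and Col28a1, had a probe above background on no more than 1 array. Col2a1 (cartilage fibrils) was seen only in 1 GHCre array of 3 days, Col10a1 (hypertrophic cartilage) only in the other GHCre array of 3 days, and Col11a1 and Col24a1 only in the GHCre array of 10 days. Col5a2 and Col28a1 were each seen in 1 control array of 3 days, and Col6a6 in the control array of 10 days. These 9 genes were not tested, which left 34 tested collagens, 25 of them well above background on all 6 arrays.

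**Figure D1:**
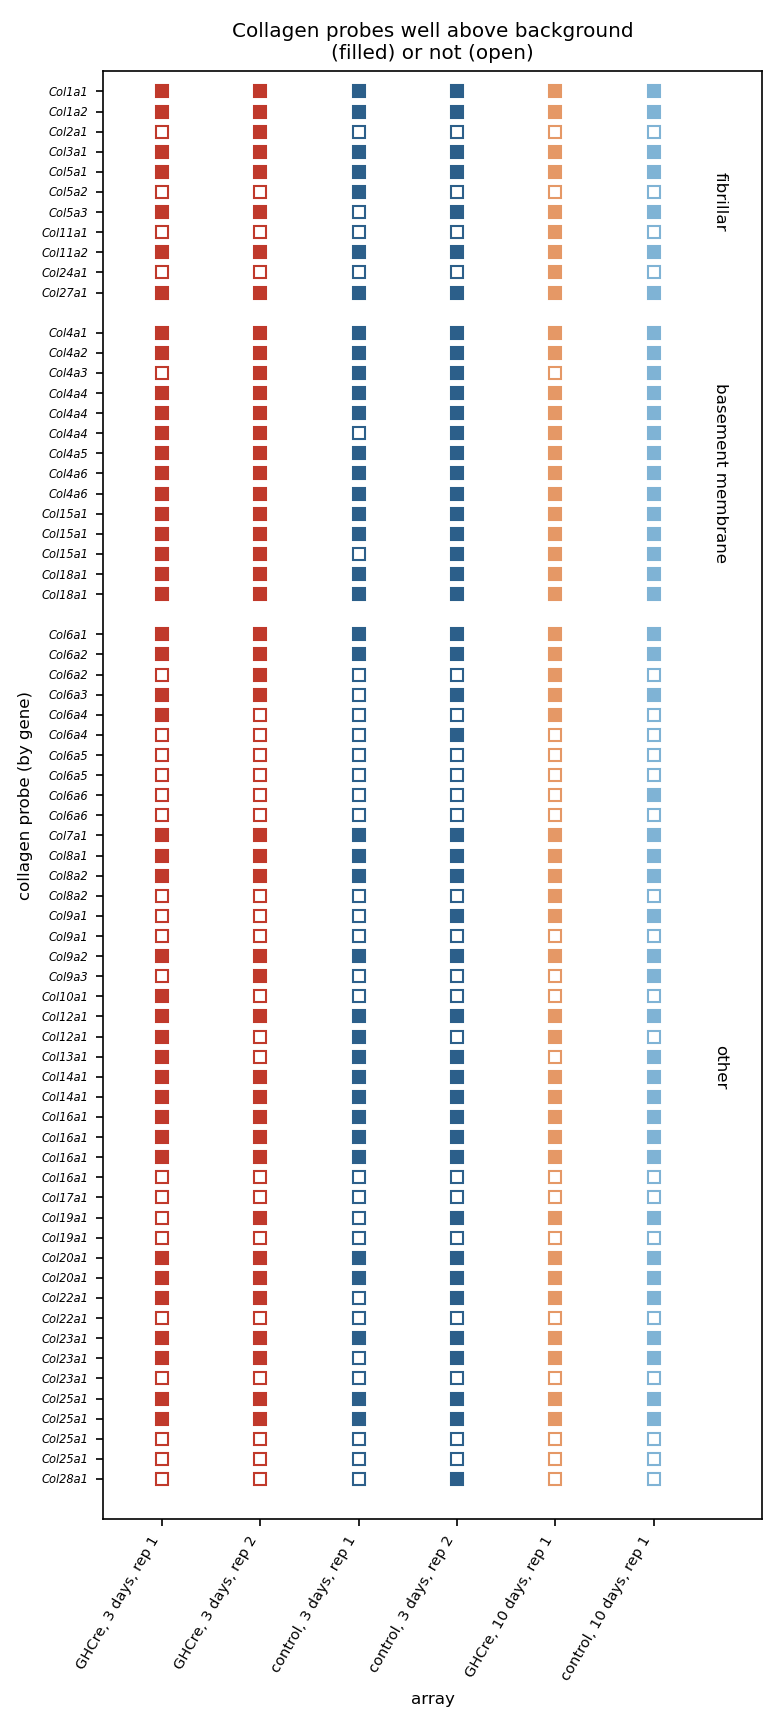
Each row is a collagen probe, named by its gene and grouped by class, and each column is an array. A filled square marks a probe well above background and an open square one that is not; the control replicate 1 array of 3 days has the fewest filled squares.

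Levels throughout are log2 signals relative to the array's own 75th percentile, so that 0 is the signal that 75% of probes do not exceed, and differences are log2 differences. A level is compared between arrays for the same probe and never between genes. Where a gene had several probes, the one with the highest mean level stands for it. Between genotypes after 3 days, limma's moderated test called 0 of the 34 collagens and 0 of all 20921 genes tested (0.0%) at a Benjamini-Hochberg adjusted p of 0.05, and 1376 genes had an unadjusted p under 0.05. No other comparison and no alternative processing called any gene either. In simulated arrays of this design with normal noise, 200 of 20921 genes were changed. A change of 3 log2 units gave 0 calls, and a change of 6 gave 177 among the changed genes and 6 among the unchanged. At that share of changed genes only very large differences were called, and sizes between 3 and 6 were not simulated. An exact permutation test of 2 arrays against 2 cannot give a two-sided p under 0.333. What follows is therefore a description of levels with the spread between arrays. The control replicate 1 array of 3 days was the dimmest, with 53.8% of its probes well above background against 61.4% to 65.7% on the other 5.

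After 3 days of toxin, collagen signals lay mostly higher in GHCre than in control cells. The difference was above 0 for 23 of the 34 tested collagens, where 48.0% of all genes tested lay above 0. The median difference was 0.43 for the collagens and -0.04 for all genes. For 13 collagens both GHCre arrays exceeded both control arrays (16.7% of all genes), and for 2 both lay below (21.3% of all genes). The 13 include the barely detected Col6a4, whose closest GHCre and control values both round to -4.47. At an unadjusted p of 0.05 there were 3 collagens higher (3.95% of all genes), namely Col4a2, Col5a3 and Col8a2, and 2 lower (2.63% of all genes), Col4a4 and Col27a1. Among the 25 collagens above background on all 6 arrays, 17 lay higher (43.1% of all such genes) with a median of 0.52. Of these 25, 11 were higher without overlap (2338 of all 14724 such genes) and 2 lower without overlap (3689 of 14724). Within slide 1 the median difference was 0.51 with 21 of 34 higher, and within slide 3 it was 0.31 with 27 of 34 higher. After normexp background correction the count was 18 of 34 with a median of 0.12, while the median of all genes lay at -0.15 and 37.2% of all genes lay above 0. In RNA from a sorted pool, more cells of a type and more RNA per cell cannot be told apart. The summed signal of 8 fibroblast markers moved the same way, at 8.03 and 7.63 in GHCre and 7.34 and 6.56 in control arrays on the log2 scale, and its part in the collagen difference was not tested. These markers include Dcn and Lum, matrix genes also counted below among the partners of fibrils, and Dpt, which was not detected.

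By class, 6 of the 7 tested fibrillar collagens lay higher in GHCre cells after 3 days, with a median of 0.51, which ranged from 0.25 without control replicate 2 to 0.86 without GHCre replicate 2. Basement membrane collagens divided evenly, with 4 of 8 higher and a median of 0.19. Their median was -0.00093 without control replicate 2, 0.29 without GHCre replicate 2, 0.44 without GHCre replicate 1 and 0.51 without control replicate 1. Of the 19 other collagens, 13 lay higher with a median of 0.35, between 0.31 and 0.48 as single arrays were left out. Among collagens above background on all 6 arrays the medians stood in another order, at 0.35 for 6 fibrillar, 0.52 for 7 basement membrane and 0.61 for 12 other collagens. The differences between classes were not tested, since the members of a class share their arrays.

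**Figure D2:**
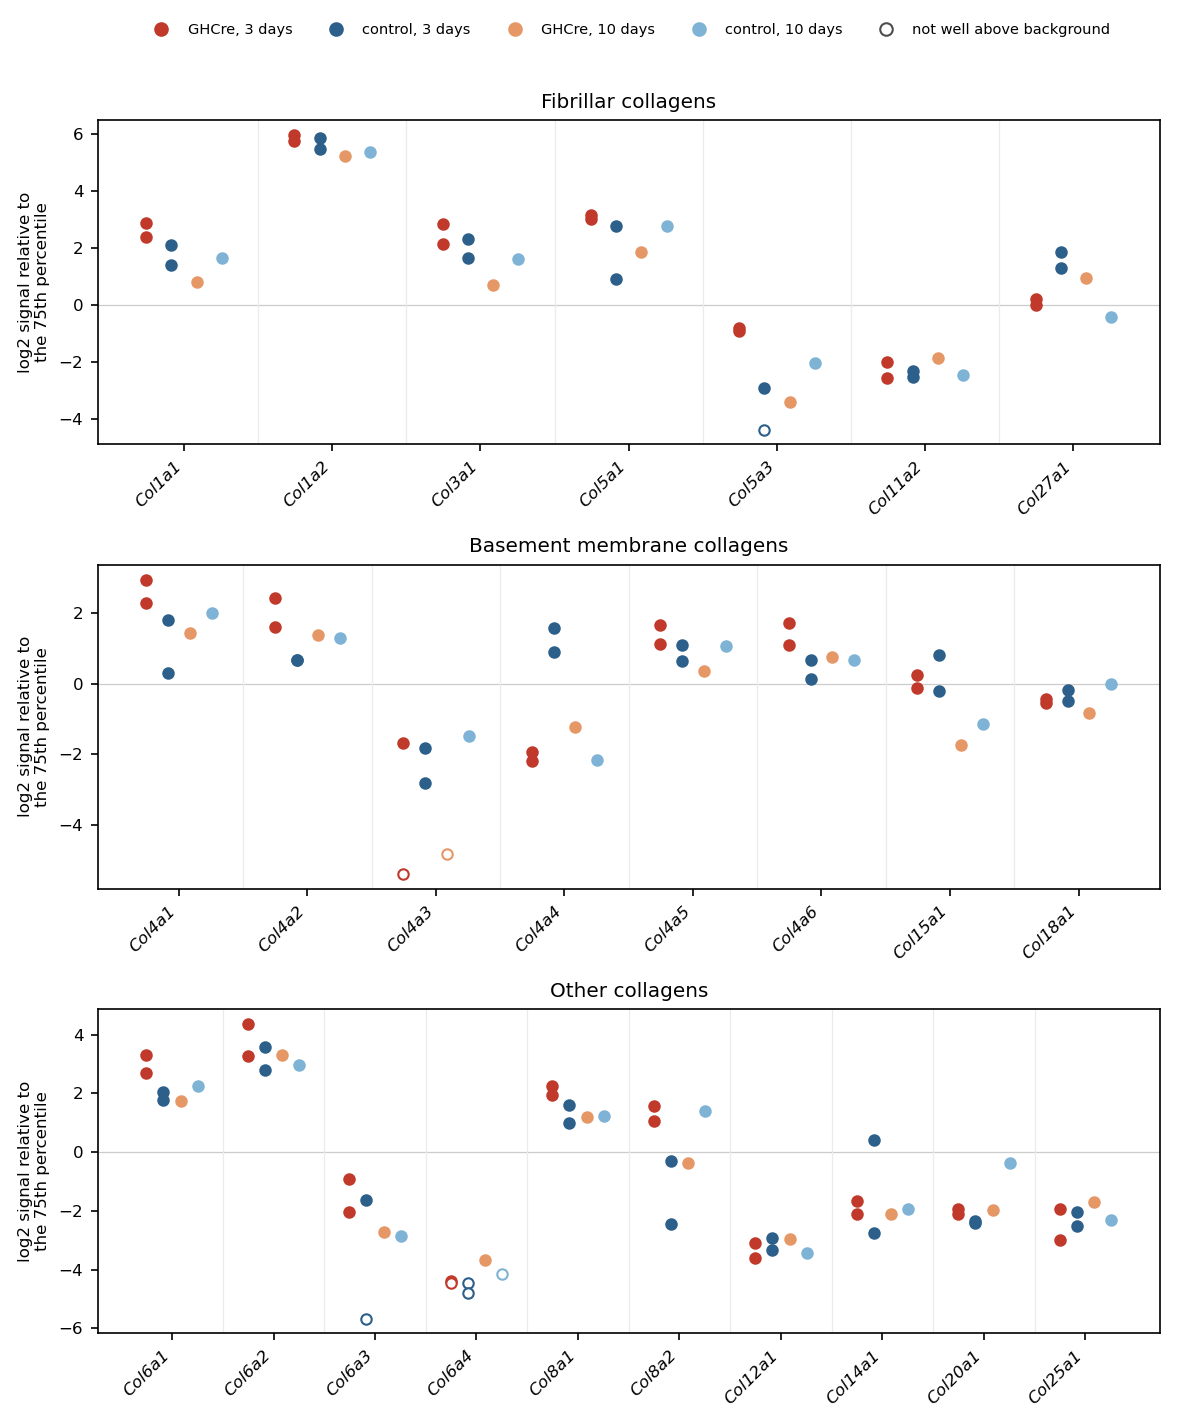
Each dot is the log2 signal of 1 array relative to its 75th percentile for the collagens described in the text, by class, with GHCre left of control at each time. Open dots are not well above background. Col5a3, Col4a2 and Col8a2 lie higher in both GHCre arrays of 3 days, while Col4a4 and Col27a1 lie lower in both.

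Type I collagen, the main fibre protein, was bright on every array. Col1a1, which encodes its alpha 1 chain (probe at chr11:94813115-94813174, mm9), read 2.85 and 2.38 in GHCre and 2.10 and 1.38 in control arrays after 3 days. After 10 days it read 0.80 in GHCre and 1.63 in control. The genotypes did not overlap after 3 days, and the difference of 0.88 ± 0.50 (SE) had a 95% interval from -0.49 to 2.25 and a limma adjusted p of 0.854. The gap had the opposite sign after 10 days, at -0.83 ± 0.70. Col1a2, the alpha 2 chain (chr6:4490619-4490678), read 5.74 and 5.95 in GHCre and 5.86 and 5.46 in control arrays after 3 days, and 5.22 in GHCre and 5.37 in control after 10 days. Its genotypes overlapped after 3 days, with a difference of 0.18 ± 0.43. The unequal sizes of the differences of these partner chains were not tested against each other.

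Type III collagen makes the fine reticular fibres that accompany type I. Col3a1 (chr1:45405589-45405648) read 2.82 and 2.12 in GHCre and 2.30 and 1.62 in control arrays after 3 days, and 0.70 in GHCre and 1.59 in control after 10 days. Its 3-day difference of 0.51 ± 0.52 came with overlapping groups, though it was 0.52 and 0.50 within the 2 slides. After 10 days GHCre lay below control by 0.90 on the log2 scale.

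Type V chains sit inside type I fibrils and limit their diameter. Col5a1 (chr2:27892892-27892951) read 3.14 and 3.00 in GHCre and 0.90 and 2.76 in control arrays after 3 days, and 1.86 in GHCre and 2.77 in control after 10 days. Its groups did not overlap after 3 days, but the difference of 1.23 ± 0.77 was 2.24 within slide 1 and 0.23 within slide 3, and slide 1 holds the dim control array. Col5a3 (chr9:20574592-20574651), the chain of the less common type V trimer, read -0.82 and -0.93 in GHCre arrays and -4.38 and -2.92 in control arrays after 3 days, where the first control value was not well above background. After 10 days it read -3.40 in GHCre and -2.05 in control. The 3-day difference of 2.77 ± 0.65 had an interval from 0.97 to 4.58 and an adjusted p of 0.692. With the control array that fell below background left out it was 2.04, within the slides it was 3.56 and 1.99, and after normexp correction it was 1.16.

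Col27a1 encodes a fibrillar chain best known from cartilage, and it was the 1 tested fibrillar collagen that lay lower in GHCre cells after 3 days. It read 0.00 and 0.20 in GHCre and 1.29 and 1.85 in control arrays after 3 days, and 0.94 in GHCre and -0.45 in control after 10 days (chr4:62995485-62995544). The groups did not overlap after 3 days, and the difference of -1.47 ± 0.45 was -1.30 and -1.65 within the slides, with an adjusted p of 0.737. After 10 days GHCre lay above control by 1.39 ± 0.63. Col11a2, a chain of cartilage type XI fibrils, read -2.58 and -2.03 in GHCre and -2.55 and -2.34 in control arrays after 3 days, and -1.89 in GHCre and -2.46 in control after 10 days. Its 3-day groups overlapped.

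In basement membranes the common type IV trimer is built of the Col4a1 and Col4a2 chains, the pair that shares the promoter region printed above. Col4a1 (chr8:11199009-11199068) read 2.95 and 2.30 in GHCre and 0.31 and 1.81 in control arrays after 3 days, and 1.45 in GHCre and 2.01 in control after 10 days. Col4a2 (chr8:11448840-11448899) read 2.45 and 1.61 in GHCre and 0.66 and 0.66 in control arrays after 3 days, and 1.39 in GHCre and 1.29 in control after 10 days. Neither gene's groups overlapped after 3 days. The difference was 1.57 ± 0.70 for Col4a1 (interval -0.38 to 3.51, adjusted p 0.804) and 1.37 ± 0.49 for Col4a2 (interval 0.01 to 2.73, adjusted p 0.758). For Col4a1 it was 2.65 within slide 1 and 0.48 within slide 3, and for Col4a2 it was 1.79 and 0.95. After 10 days the pair gave -0.56 ± 0.99 and 0.10 ± 0.69.

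The X-linked pair Col4a5 and Col4a6 encodes chains of more restricted basement membranes. Col4a5 (chrX:138123547-138123606) read 1.68 and 1.12 in GHCre and 1.10 and 0.65 in control arrays after 3 days, and 0.37 in GHCre and 1.07 in control after 10 days. Col4a6 (chrX:137599990-137600049) read 1.71 and 1.11 in GHCre and 0.13 and 0.67 in control arrays after 3 days, and 0.76 in GHCre and 0.66 in control after 10 days. Both showed no overlap after 3 days, by narrow margins for Col4a5, with differences of 0.52 ± 0.47 and 1.01 ± 0.49. The second Col4a6 probe gave 0.24 ± 0.61.

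Col4a3 and Col4a4 encode chains of the trimer typical of the kidney glomerulus. Col4a3 (chr1:82717775-82717834) read -5.40 and -1.69 in GHCre and -2.82 and -1.84 in control arrays after 3 days, and -4.84 in GHCre and -1.50 in control after 10 days. Its lowest GHCre value of 3 days and the GHCre value of 10 days were not well above background. Set against the lowest signal detected on the GHCre array of 10 days, the control signal was 6.83-fold higher, with a limma adjusted p of 1.000. That lowest signal was above the Col4a3 probe's own reading there. It is not a strict limit, since a probe not well above background can read above it, as Col13a1 did on that array. Col4a4, read by the probe at chr1:82449133-82449192, read -2.18 and -1.95 in GHCre and 1.60 and 0.90 in control arrays after 3 days, and -1.24 in GHCre and -2.17 in control after 10 days. At -3.31 ± 0.47 (interval -4.62 to -2.01) this was the collagen difference of lowest p after 3 days, 9.93-fold lower with an adjusted p of 0.653, and it was -3.78 and -2.85 within the slides.

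The other Col4a4 probes did not show it. The probe at chr1:82447879-82447938 read -1.16 and -1.69 in GHCre and -1.56 and -0.91 in control arrays after 3 days, and -1.76 in GHCre and -0.99 in control after 10 days. Another at chr1:82515563-82515622 read -3.30 and -1.35 in GHCre and -4.03 and -2.99 in control arrays after 3 days, the first control value not well above background, and -3.43 in GHCre and -1.93 in control after 10 days. Their 3-day differences were -0.19 ± 0.51 and 1.18 ± 0.88, so the Col4a4 result rests on 1 of 3 probes. Averaged over its probes Col4a4 differed by -0.77.

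The multiplexins Col15a1 and Col18a1 bridge basement membranes and fibrils, and a fragment of the Col18a1 product is known as endostatin. Col15a1 (chr4:47325273-47325332) read -0.12 and 0.26 in GHCre and 0.81 and -0.20 in control arrays after 3 days, and -1.75 in GHCre and -1.14 in control after 10 days. On this probe both 10-day values lay below all 4 values of 3 days. Of its other probes, that at chr4:47325261-47325320 gave the same order, but it overlaps the first probe and is not a separate reading of the gene. The probe at chr4:47283786-47283845 gave the opposite order. It read -3.35 and -3.75 in GHCre and -4.25 and -3.45 in control arrays after 3 days, the first control value not well above background. After 10 days it read -2.85 in GHCre and -3.14 in control. Col18a1 (chr10:76514926-76514985) read -0.54 and -0.42 in GHCre and -0.19 and -0.48 in control arrays after 3 days, and -0.84 in GHCre and -0.01 in control after 10 days. Genotypes overlapped after 3 days for both.

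Among the other collagens, type VI forms beaded filaments close to cells, and its Col6a1 and Col6a2 chains were detected throughout. Col6a1 (chr10:76171538-76171597) read 3.29 and 2.70 in GHCre and 2.04 and 1.76 in control arrays after 3 days, and 1.75 in GHCre and 2.26 in control after 10 days. The 3-day groups did not overlap, at 1.09 ± 0.46 with an interval from -0.17 to 2.36 and an adjusted p of 0.794, and the slides gave 1.25 and 0.93. Col6a2 (chr10:76058931-76058990) read 4.36 and 3.28 in GHCre and 3.59 and 2.79 in control arrays after 3 days, and 3.32 in GHCre and 2.98 in control after 10 days. Its groups overlapped, although GHCre was above control within both slides, by 0.77 and 0.49. Col6a3 (chr1:92663663-92663722), the long chain of the same trimer, read -0.91 and -2.04 in GHCre and -5.67 and -1.64 in control arrays after 3 days, and -2.73 in GHCre and -2.86 in control after 10 days. Its difference of 2.18 ± 1.53 rested on the control value that was not well above background, being 4.75 within slide 1 and -0.40 within slide 3. Col6a4 lay at the edge of detection: its probe of highest signal read -4.40 and -4.47 in GHCre and -4.47 and -4.78 in control arrays after 3 days, and -3.66 in GHCre and -4.15 in control after 10 days. That probe was well above background only on 1 GHCre array at each time, and the second Col6a4 probe only on 1 control array of 3 days.

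Type VIII collagen forms hexagonal networks around vessels and in the cornea. Col8a1 (chr16:57624471-57624530) read 2.25 and 1.96 in GHCre and 1.60 and 1.00 in control arrays after 3 days, and 1.20 in GHCre and 1.25 in control after 10 days. Its 3-day groups did not overlap, with a difference of 0.80 ± 0.46. Col8a2 (chr4:125991441-125991500) read 1.56 and 1.07 in GHCre and -0.29 and -2.45 in control arrays after 3 days, and -0.35 in GHCre and 1.40 in control after 10 days. The 3-day difference of 2.69 ± 0.87 (interval 0.26 to 5.11, adjusted p 0.750) was a 6.43-fold higher signal, and it was 1.60 without control replicate 2 and 3.77 without control replicate 1. The sign was opposite after 10 days, at -1.75 ± 1.24. A second Col8a2 probe was well above background only on the GHCre array of 10 days.

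FACIT collagens attach to the surface of fibrils and were mostly faint or variable. Col20a1 (chr2:180752070-180752129) read -1.94 and -2.10 in GHCre and -2.42 and -2.33 in control arrays after 3 days, and -1.96 in GHCre and -0.36 in control after 10 days. The 10-day gap of -1.60 ± 0.56 was the collagen difference of lowest p at that time, with an adjusted p of 1.000, and it came from a high control value. The second Col20a1 probe had the opposite sign there, at 0.45 ± 0.65. Col12a1 read -3.09 and -3.60 in GHCre and -2.91 and -3.34 in control arrays after 3 days, and -2.95 in GHCre and -3.44 in control after 10 days. Col14a1 read -1.67 and -2.10 in GHCre and 0.40 and -2.75 in control arrays after 3 days, and -2.10 in GHCre and -1.92 in control after 10 days. Groups overlapped for both genes. Col9a2, a cartilage FACIT chain, had no overlap after 3 days and a difference of 1.45 ± 0.66, with an adjusted p of 0.812, but it was 2.46 within slide 1, 0.44 within slide 3 and 0.76 without the dim control array. Col16a1 differed by 0.59 ± 0.56 with overlap.

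The membrane-spanning Col25a1, whose shed ectodomain is known from amyloid plaques, read -2.99 and -1.92 in GHCre and -2.52 and -2.03 in control arrays after 3 days, and -1.68 in GHCre and -2.31 in control after 10 days. Col13a1, also membrane-spanning, was not well above background in the GHCre array of 10 days. By its own reading there, control exceeded GHCre by 4.66-fold, a difference of -2.22 ± 2.30 with an interval from -8.60 to 4.15. After 3 days its GHCre values were -1.72 and -6.04, the second not well above background, and its control values -1.98 and -3.15. The anchoring fibril gene Col7a1 differed by -0.14 ± 0.52 after 3 days and 0.27 ± 0.73 after 10 days. Col9a1, Col19a1, Col22a1 and Col23a1 overlapped between genotypes after 3 days on their probes of highest signal, with differences between -0.15 and 0.81. The second Col23a1 probe did not overlap after 3 days, at 0.85 ± 0.42, and after 10 days it differed by -2.02 ± 0.60 with a limma adjusted p of 1.000. Col9a3 was well above background on neither control array of 3 days and on 1 of the 2 GHCre arrays.

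**Figure D3:**
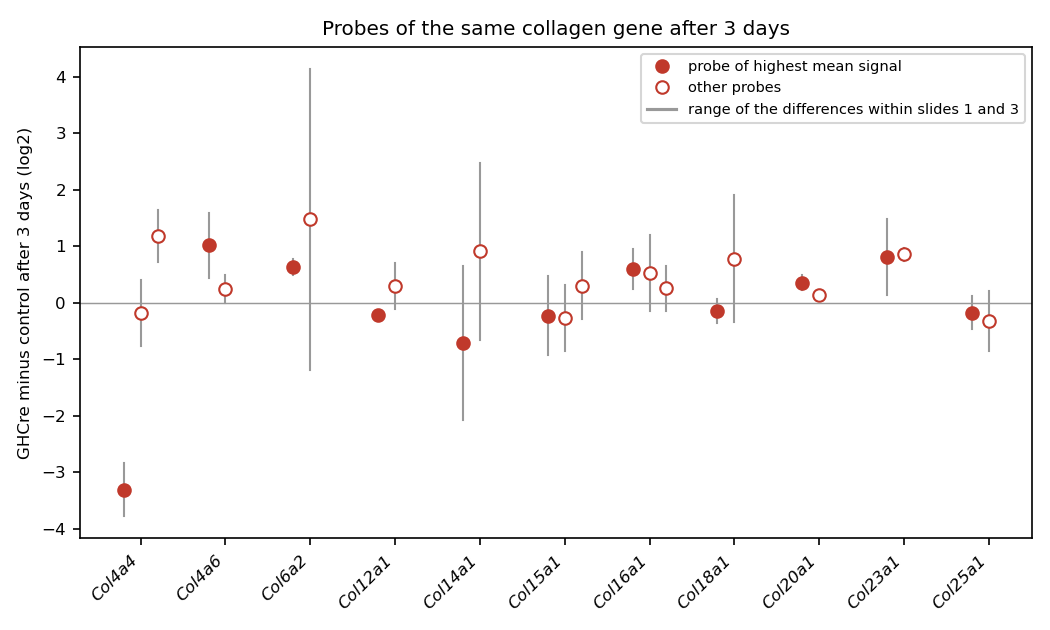
For the 11 collagens with more than 1 probe well above background on at least 2 arrays, dots give the 3-day difference between GHCre and control (log2) of the probe of highest signal (filled) and the other probes (open), and lines span the differences within slides 1 and 3. In Col4a4, Col12a1, Col14a1, Col15a1 and Col18a1 the probes fall on both sides of 0.

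Where a collagen had several usable probes they often disagreed. Of 11 such genes, 5 had probes of different sign after 3 days, namely Col4a4, Col12a1, Col14a1, Col15a1 and Col18a1. In Col18a1 the second probe gave 0.78 ± 0.70 against -0.15 ± 0.41 for the probe of highest signal, and in Col14a1 it gave 0.91 ± 0.90 against -0.71 ± 1.19. Each of these differences lay within 2 of its standard errors of 0 except that of the brightest Col4a4 probe. The 3 usable Col16a1 probes, by contrast, all lay above 0, at 0.59, 0.52 and 0.25.

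After 10 days of toxin the collagen signals leaned the other way. Of the 34 tested collagens 13 lay higher in the GHCre array (49.9% of all genes tested), with a median of -0.17 against 0.00 for all genes. Past a 2-fold difference, 1 was higher (12.7% of all genes), Col27a1, and 6 were lower (14.0% of all genes). Fibrillar collagens gave 2 of 7 higher with a median of -0.83, basement membrane collagens 3 of 8 with -0.58, and other collagens 8 of 19 with -0.05. Each genotype has 1 array here, on different slides, so genotype and slide cannot be told apart after 10 days.

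A difference above 0 after 3 days together with one below 0 after 10 days was seen for 16 of 34 collagens (23.3% of all genes tested). Fibrillar genes made up 5 of these 16, among them Col1a1, Col3a1, Col5a1 and Col5a3. The test of the change itself, the 10-day genotype difference minus that of 3 days, was below 0 for 24 collagens (48.6% of all genes) with a median of -0.89 against 0.03 for all genes. By class the median was -1.41 for fibrillar, -1.07 for basement membrane and -0.85 for other collagens. At an unadjusted p of 0.05 there were 3 collagens below 0 (2.49% of all genes) and 2 above (1.45% of all genes). Those below were Col5a3 at -4.13 ± 1.13, Col8a2 at -4.44 ± 1.52 and Col20a1 at -1.95 ± 0.69. Those above were Col27a1 at 2.87 ± 0.77 and Col4a4 at 4.25 ± 0.82. All 5 had a limma adjusted p of 1.000. The other Col4a4 probes lay below 0, at -0.58 ± 0.88 and -2.68 ± 1.53. The second Col20a1 probe lay above 0, at 0.32 ± 0.80.

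**Figure D4:**
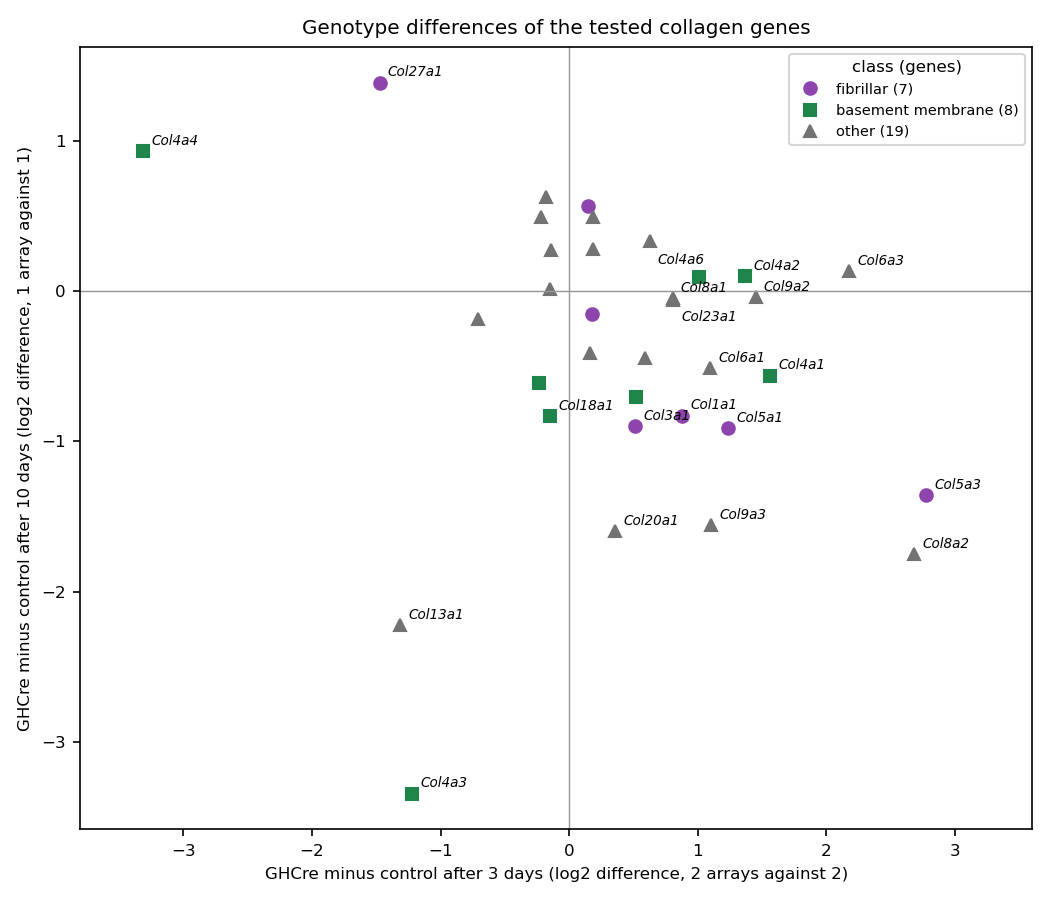
Each point is a tested collagen, with its difference between GHCre and control after 3 days on the horizontal axis and after 10 days on the vertical axis (both log2). The lower right part, higher after 3 days and lower after 10 days, holds 16 of the 34 genes, and Col27a1 and Col4a4 lie in the upper left.

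Set against 3 days, the 10-day GHCre array was lower for 24 of the 34 collagens (42.7% of all genes), with a median of -0.65 against 0.11 for all genes, and 12 were lower past 2-fold (11.2% of all genes). Within slide 3, which held GHCre arrays of both times, the median was -0.38 for all 34, -1.14 for fibrillar, -0.58 for basement membrane and -0.03 for other collagens. Col1a1 differed by -1.81 ± 0.61, Col3a1 by -1.77 ± 0.64, Col5a3 by -2.53 ± 0.80 and Col15a1 by -1.82 ± 0.67, each with a limma adjusted p of 1.000, while another Col15a1 probe differed by 0.70 ± 0.64. In control cells the 10-day array was higher for 20 of 34 (55.1% of all genes) with a median of 0.19 against 0.09 for all genes. Control differences ranged from -3.42 ± 0.58 for Col4a4 to 2.77 ± 1.07 for Col8a2, but the other Col4a4 probes differed by 0.24 ± 0.63 and 1.58 ± 1.08. The 10-day control array was alone on its slide, so time and slide cannot be told apart in control cells. These time comparisons use the same arrays as the genotype comparisons.

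The genes that modify, process and bind collagen were examined from lists made for this work. Prolyl and lysyl hydroxylases, their partners and collagen chaperones, which prepare chains in the endoplasmic reticulum, were split, with 9 of 17 higher in GHCre cells after 3 days (median 0.02) and 7 of 17 after 10 days (median -0.38). The prolyl hydroxylase subunit P4ha1 read -4.85 and -6.25 in GHCre, neither well above background, and -0.85 and -3.34 in control arrays after 3 days. Its companions Plod1, a lysyl hydroxylase, and Ppib, a peptidyl-prolyl isomerase, differed by 1.51 and 0.59 after 3 days, but Plod1 by only 0.49 without the dim control array. Serpinh1, the collagen chaperone HSP47, differed by -0.04.

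Genes that trim and crosslink secreted collagen lay mostly higher in GHCre cells after 3 days, with 9 of 12 above 0 (48.0% of all genes) and a median of 1.05. At a limma unadjusted p of 0.05, 0 of them were higher (3.95% of all genes) and 1 was lower (2.63% of all genes). After 10 days 7 of 12 lay above 0 (49.9% of all genes) with a median of 0.11. Loxl2, a lysyl oxidase that crosslinks type IV collagen, read 2.41 and 1.71 in GHCre and 0.91 and 0.77 in control arrays after 3 days, and 1.58 in GHCre and -0.77 in control after 10 days. Adamts14, a procollagen N-proteinase, read 2.11 and 1.97 in GHCre and 1.20 and 0.06 in control arrays after 3 days, and 1.68 in GHCre and -0.39 in control after 10 days. Both genes lay higher in GHCre at both times and without overlap after 3 days, with adjusted p of 0.764 and 0.780 at that time. Pcolce2, an enhancer of procollagen trimming, read -4.68 and -3.49 in GHCre and -2.23 and -2.53 in control arrays after 3 days, and -4.76 in GHCre and -2.00 in control after 10 days. Its first GHCre value of 3 days and its GHCre value of 10 days were not well above background.

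Collagen receptors were evenly divided, with 5 of 10 higher after 3 days (median 0.09) and 4 of 10 after 10 days (median -0.26). Itga1, the integrin subunit that binds type IV collagen, read -4.23 and -2.50 in GHCre and 0.08 and -1.47 in control arrays after 3 days, and -1.79 in GHCre and -4.66 in control after 10 days, the last not well above background. Mrc2, an endocytic collagen receptor, differed by 0.96 after 3 days. Cd93, which is counted in this list though its binding of collagen was not examined, differed by 2.71 with 1 control array below background.

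Of the proteins that sit on fibrils or build basement membranes with type IV collagen, 16 of 19 lay higher in GHCre cells after 3 days (48.0% of all genes) with a median of 0.68. After 10 days 3 of 19 did (49.9% of all genes) with a median of -0.52. Hspg2, the gene of perlecan, read 3.48 and 3.30 in GHCre and 2.38 and 1.26 in control arrays after 3 days, and 2.41 in GHCre and 2.79 in control after 10 days. Lamb2, a laminin chain, read -0.02 and 1.20 in GHCre and -1.04 and -0.83 in control arrays after 3 days, and -0.20 in GHCre and 0.39 in control after 10 days. The lowest p in this list after 3 days was that of Hspg2, a difference of 1.57 with an adjusted p of 0.758. Fmod, fibromodulin, differed by -0.75, and by -0.37 without the dim control array.

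**Figure D5:**
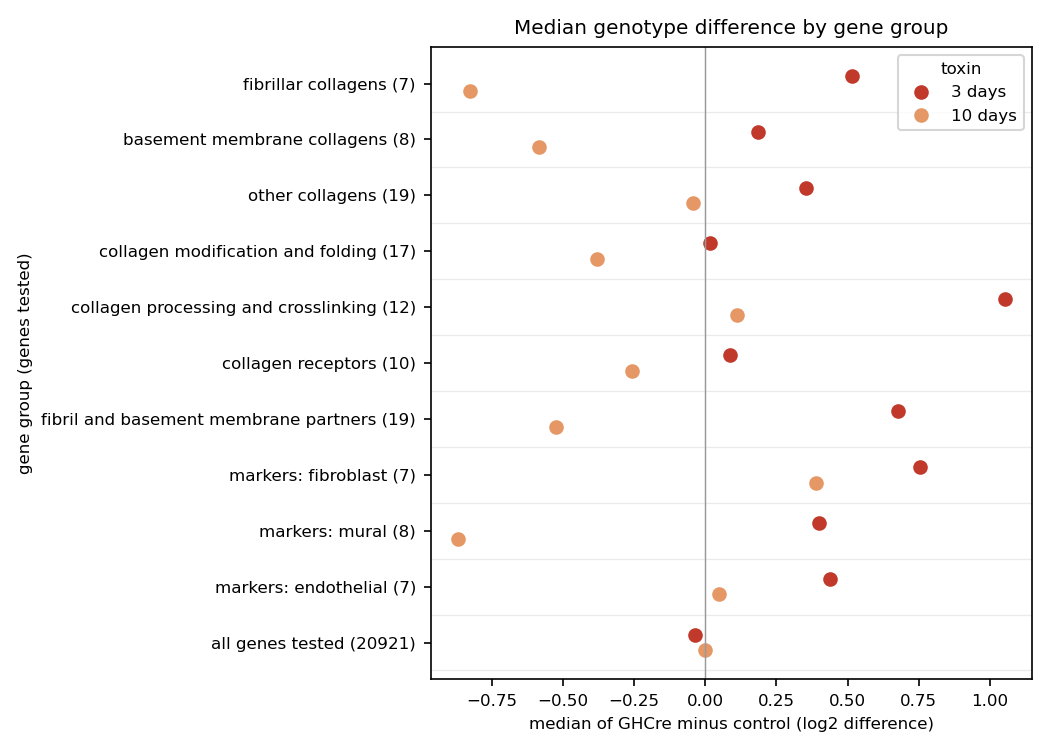
Points give the median difference between GHCre and control (log2) over the tested genes of each group, after 3 and after 10 days. Every collagen class, the modification, receptor and partner lists and the mural markers lie right of 0 after 3 days and left after 10 days, some only slightly. Processing genes and the fibroblast and endothelial markers lie right of 0 at both times. All genes lie near 0. Dcn and Lum are counted in both the partner and the fibroblast groups.

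Markers of the cells that make collagen were present in the sorted population. Of 8 fibroblast markers, 7 were well above background on all 6 arrays and Dpt on none, and 6 of 7 tested lay higher in GHCre cells after 3 days (median 0.76), each without overlap (16.7% of all genes). Thy1 differed by 1.74 (0.98 without the dim control array), Fbln1 by 1.28 and Pdgfra by 0.80. After 10 days the fibroblast sum was 7.21 in GHCre and 6.93 in control, and 6 of 7 markers lay higher, whereas fibrillar collagens lay mostly lower at that time. The summed signal of 8 mural markers was 5.47 and 4.88 in GHCre and 4.94 and 4.55 in control arrays after 3 days, and 4.50 in GHCre and 5.17 in control after 10 days. Of these, 7 of 8 lay higher after 3 days (median 0.40), led by Des at 2.05, and 2 of 8 after 10 days (median -0.87). Endothelial markers gave 5 of 7 higher after 3 days, with sums of 2.82 and 2.64 in GHCre and 2.33 and 2.29 in control arrays, and 2.50 in GHCre and 2.51 in control after 10 days. The part of these cells in the collagen differences was not tested. Macrophage markers gave 2 of 5 higher after 3 days, with sums of 4.40 and 4.38 in GHCre and 5.02 and 4.90 in control arrays, and 4.81 in GHCre and 4.68 in control after 10 days. Hormone genes gave 2 of 6 higher after 3 days, with sums of 10.66 and 10.36 in GHCre and 11.15 and 11.07 in control arrays, and 10.82 in GHCre and 10.78 in control after 10 days, where 1 of 6 lay higher with a median of -3.78. Both of these sums were lower in GHCre after 3 days without overlap. The 3 stem cell markers that were tested all lay higher in GHCre after 3 days (median 0.98), and 1 of 3 did after 10 days (median -1.12).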

How the data were processed

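RNA of the sorted pituitary side population was measured on 6 arrays, grouped by their titles, which match the genotype and treatment fields; for some samples the free-text description says otherwise, and it was not used. Per the file headers, Agilent Feature Extraction 10.7.3.1 read the spots of these 1-colour arrays, subtracted background and removed spatial trends within each array to give an intensity per spot. The deposited series table holds log2 values for 38017 probes, which matched quantile-normalized processed signals with a correlation of at least 0.9999 on every array, and it served as an alternative. Probe positions are on mm9 as the files give them.

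From the 43020 spots that are not controls, spots of a probe were averaged and the log2 signal was taken minus the array's log2 75th percentile. A gene was tested if its probe of highest mean passed the background flag on 2 or more arrays. limma 3.58.1 in R 4.3.3 fitted a mean for each of the 4 groups, with empirical Bayes moderation (2 residual degrees of freedom from the 3-day arrays, 2.03 prior) and Benjamini-Hochberg adjustment at 0.05 over all 20921 genes tested. No read depth applies to arrays, so the number of arrays limits the precision. The fit was tested on simulated data. The members, classes and gene lists were chosen with earlier results of these data known. Values on all arrays are given for the 3 members of highest mean level in each class, the type I, III, IV and VI chains, up to 4 collagens of lowest p in each direction of each genotype comparison that were well above background on the brighter arrays and, after 3 days, did not overlap, and genes whose probes differed in sign. Other collagens, and list genes beyond the 3 of lowest p, were added after their values were seen. For Col4a3 and Col13a1 after 10 days, the fold sets the brighter array against the dim one at the higher of 2 values. These are the lowest signal well above background there and the probe's own reading. Alternatives covered background correction, normalization, the filter, the choice of probe, the variance prior, slide or replicate blocks and leaving out each 3-day array. Not every marker gene examined is reported here.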

Additional observations from a re-analysis of the deposited data

How the results depend on the processing

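No gene was called under any setting. Over single collagens, 1036 alternative values kept the sign reported and 27 did not. After 3 and after 10 days, class medians of the genotype difference moved in 12 cases by more than the SD of the class median between replicate arrays. That SD was 0.38 for fibrillar, 0.098 for basement membrane and 0.24 for other collagens, so smaller shifts count for basement membrane. The cause was not tested for any of these changes. Within that SD the fibrillar median after 3 days (0.51) ran from 0.25 to 0.86 as single arrays were left out and was 0.35 with the filter on all 6 arrays. The fibrillar median after 10 days (reported -0.83) was -0.43 with normexp and quantile normalization and -0.26 with no filter. The basement membrane median after 3 days (0.19) was 0.52 with the filter on all 6 arrays, 0.42 over the mean of all probes, and -0.00093 to 0.51 as single arrays were left out. The basement membrane median after 10 days (-0.58) was -0.46 with normexp and quantile normalization and -0.45 with normexp and the 75th percentile. The median of the other collagens after 3 days (0.35) was 0.61 with the filter on all 6 arrays and -0.0088 with normexp and the 75th percentile. Medians of the change between times are not in the count of 12. With normexp and the 75th percentile they were -1.36 for fibrillar (reported -1.41), -0.79 for basement membrane (-1.07) and -0.38 for other collagens (-0.85).

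Among the collagens chosen by rule, normexp with the 75th percentile turned the sign for Col6a4 (-0.30), Col11a2 (-0.083) and Col20a1 (-0.0088) after 3 days. After 10 days it did so for Col6a3 (-0.092) and Col8a1 (0.00079). With normexp and quantile normalization it turned for Col6a4 after 3 days (-0.044) and Col6a3 after 10 days (-0.015). With the mean of all probes it turned after 3 days for Col6a4 (-1.21), Col12a1 (0.038), Col14a1 (0.098) and Col18a1 (0.32), after 10 days for Col4a4 (-0.44) and Col8a2 (0.20), and in the change between times for Col6a2 (0.0015) and Col14a1 (-0.53).

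Among the same collagens, leaving out single arrays spanned 0 after 3 days for Col1a2 (-0.022 to 0.38), Col4a3 (-3.08 to 0.63), Col11a2 (-0.13 to 0.42), Col12a1 (-0.47 to 0.037), Col14a1 (-2.29 to 0.87), Col15a1 (-0.74 to 0.27) and Col25a1 (-0.71 to 0.36). It did so in the change between times for Col6a2 (-0.83 to 0.25), Col14a1 (-1.05 to 2.11) and Col15a1 (-0.88 to 0.13). An arm then left with 1 array is assumed to vary like the others.

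Same-numbered 3-day arrays of the genotypes lay on the same slide (1 or 3). Nothing in the labels pairs them otherwise, there are only 2 pairs, and their deviations correlated at 0.087. The replicate block gave 0 calls, a lowest collagen adjusted p of 0.691 (limma) and, at an unadjusted p under 0.05 after 3 days, 2 collagens higher, 2 lower and 1457 genes in all. The slide block gave the same values there, and contrasts with the 10-day control, alone on its slide, could not be fitted with it.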

Other observations

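Emid2, whose current symbol is Col26a1, encodes a collagen chain that the symbol rule did not match. Its 2 probes were well above background on all 6 arrays. The first read -0.9996 and -0.72 in GHCre and -2.92 and -1.60 in control arrays after 3 days, and -2.90 in GHCre and -1.58 in control after 10 days. The second read -0.96 and -0.61 in GHCre and -2.21 and -1.55 in control arrays after 3 days, and -3.04 in GHCre and -1.71 in control after 10 days. On both probes the GHCre arrays lay above the control arrays after 3 days without overlap, and below after 10 days. It is described here because its probes were found through their accession numbers, and it was not counted among the collagens above.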
